A study of Mus musculus with 24 samples.

Results

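Atp6v0e2, a small subunit of the membrane sector of the vacuolar proton pump, was examined in mouse frontal cortex beside its paralog Atp6v0e and 7 further genes of that sector, Atp6v0a1, Atp6v0a2, Atp6v0b, Atp6v0c, Atp6v0d1, Atp6ap1 and Atp6ap2. These 9 genes are 9 of the 52352 annotated genes that received the deposited estimates, and all 9 were among the 18239 genes that passed the filter on low counts. Atp6v0e2 was chosen by its lower counts in mice that carried a human TDP-43 transgene, so its transgene comparison is given as a description with no test. The other 8 genes belong to the same sector, and they too were picked with earlier results of these data known.

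The vacuolar proton pump (V-ATPase) uses ATP to move protons into lysosomes, endosomes and synaptic vesicles. Its soluble V1 sector hydrolyses ATP and turns a ring in the membrane-embedded V0 sector, and protons cross the membrane between that ring and the a subunit. The acid interior activates lysosomal hydrolases, and the proton gradient drives the loading of transmitters into synaptic vesicles. The e subunit is a small hydrophobic protein of V0 encoded by the paralogs Atp6v0e and Atp6v0e2, of which Atp6v0e2 is known for its expression in brain.

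Bulk poly-A RNA sequencing covered 24 littermate mice of 4 genotypes with 6 mice each, 3 females and 3 males per genotype, each library from a separate mouse. Grn encodes progranulin, a secreted protein that also acts in lysosomes, and the hTDP transgene encodes the human form of the RNA-binding protein TDP-43. The genotypes were Grn+/+:hTDP- (9.44 to 10.79 months old), Grn+/+:hTDP+ (9.44 to 10.07 months), Grn+/-:hTDP- (8.19 to 10.79 months) and Grn+/-:hTDP+ (9.44 to 10.07 months), all from a cross of Grn+/- with hTDP mice. The brains were perfused with saline, frozen and later thawed to dissect the cortex. The promoter of the transgene is not given in the sources used here. The protocol describes both strand-specific and unstranded libraries without saying which were used, so reads of genes that overlap on opposite strands may be shared.

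Libraries held 61445842 to 100859149 estimated reads, with 4328 to 8162 reads of the human TARDBP transcript in every hTDP+ library and 0 to 2 in the others. The Grn+/+:hTDP+ library of replicate 2 stood apart: it listed 40188 transcripts above 0, against 65994 to 69846 in the others, and results that rest on it are given with and without it. Of the markers of cortical excitatory neurons, Slc17a7 lay between 1071 and 1397 TPM (transcript abundance corrected for length and depth), Tbr1 between 71.98 and 128.4 TPM and Emx1 between 22.3 and 36.7 TPM in every library. The 6 striatal markers summed to 105.2 to 161.9 TPM and the 4 cerebellar markers to 0.175 to 1.18 TPM. In whole tissue, fewer cells of a type and less RNA per cell cannot be told apart.

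The genes of the V0 sector spanned a wide range of abundance, compared here in TPM. Atp6v0c, the proteolipid that forms most of the rotating ring, was the most abundant of the 9 at 2102 ± 78.9 TPM (SD, n = 24). Atp6v0b, the other proteolipid of the ring, followed at 505.1 ± 19.8 TPM. Both lay above every gene below them in all 24 libraries.

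Atp6v0e2 came next at 414.1 ± 36.3 TPM, followed by Atp6ap1, an accessory glycoprotein of V0 needed for its assembly, at 399.5 ± 21.1 TPM. These 2 overlapped, with Atp6v0e2 above Atp6ap1 in 15 of 24 libraries: in 12 of 12 without the transgene (447.4 ± 12.8 against 406.8 ± 19.8 TPM, SD, n = 12) and in 3 of 12 with it (380.8 ± 13.1 against 392.2 ± 20.5 TPM, SD, n = 12). Atp6v0a1, the a subunit isoform found at synapses, measured 313.4 ± 12.8 TPM and Atp6v0d1, the subunit that joins the ring to the central stalk, 306.4 ± 13.5 TPM. They overlapped too, with Atp6v0a1 higher in 18 of 24 libraries, 11 of 12 without and 7 of 12 with the transgene.

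Atp6ap2, the (pro)renin receptor and an accessory protein of the pump, measured 242.9 ± 16.8 TPM. Atp6v0e at 34.9 ± 2.69 TPM and Atp6v0a2, an a subunit isoform of Golgi and endosomes, at 27.1 ± 2.28 TPM were the least abundant. Atp6ap2 lay above Atp6v0e, and Atp6v0e above Atp6v0a2, in all 24 libraries. The Atp6v0c values carry an uncertainty, since 92.9% of the 31-base stretches of its processed pseudogene Atp6v0c-ps2 also occur in Atp6v0c transcripts. The pseudogene was listed at 1.49 to 2.71 CPM (counts scaled to a common library size with edgeR's TMM factors), against 930 to 1092 CPM for Atp6v0c.

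**Figure D1:**
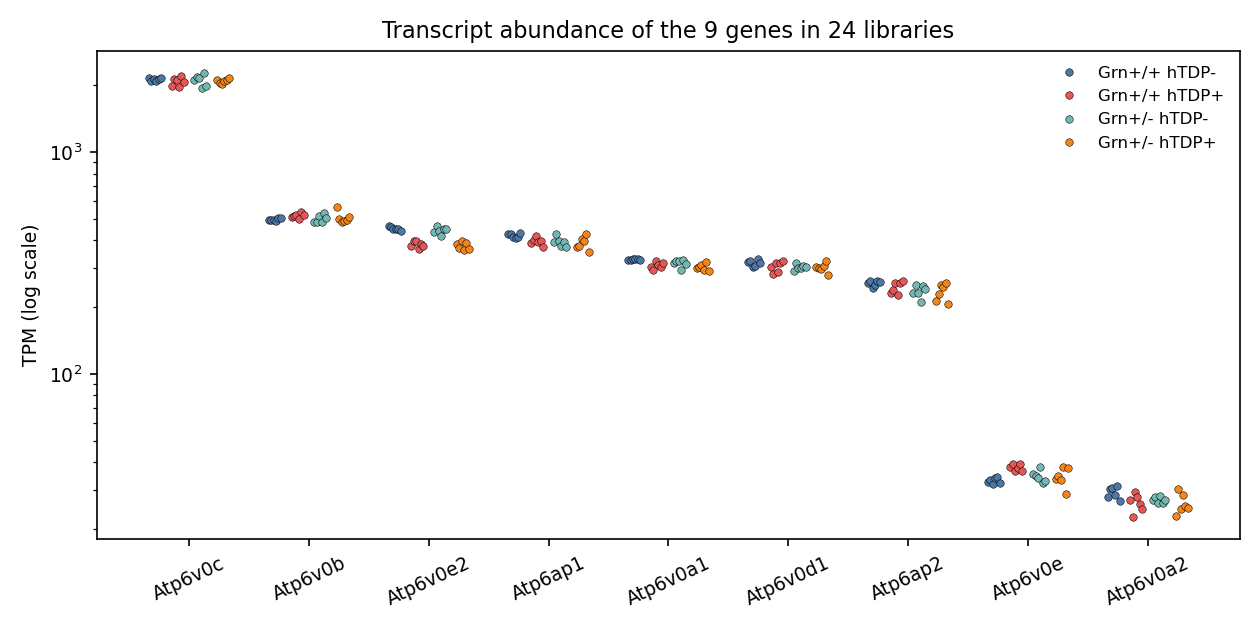
TPM on a log scale for the 9 genes, ordered by mean level, with 1 point per library and colours for the 4 genotypes of 6 mice each. Atp6v0c lies between 1953 and 2274 TPM, Atp6v0e and Atp6v0a2 lie between 22.6 and 39.2 TPM, and the other 6 genes lie between 206.9 and 565.7 TPM.

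The paralogs come from different chromosomes and share little transcript sequence. Atp6v0e2 lies at chr6:48537615-48541801 (GRCm38, plus strand) and Atp6v0e at chr17:26663231-26699647 (plus strand). Of 3703 distinct 31-base stretches in the annotated Atp6v0e transcripts, 17 also occur in those of Atp6v0e2, so little sequence could have been assigned to either gene. The paralogs differed in level and in the sign of their average transgene difference in CPM, which for Atp6v0e did not pass its test. The 250 bases before each gene's RefSeq start (GRCm38.p6), which for Atp6v0e lies inside the GENCODE gene, are shown for this reason. The first is chr6:48537319-48537568 and the second chr17:26676146-26676395, both plus strand and 5′ to 3′.
Atp6v0e2: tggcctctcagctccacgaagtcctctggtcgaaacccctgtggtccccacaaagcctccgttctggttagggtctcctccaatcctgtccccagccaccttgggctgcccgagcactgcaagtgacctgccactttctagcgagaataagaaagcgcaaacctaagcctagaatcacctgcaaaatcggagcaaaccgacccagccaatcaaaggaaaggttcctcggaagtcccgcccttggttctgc
Atp6v0e: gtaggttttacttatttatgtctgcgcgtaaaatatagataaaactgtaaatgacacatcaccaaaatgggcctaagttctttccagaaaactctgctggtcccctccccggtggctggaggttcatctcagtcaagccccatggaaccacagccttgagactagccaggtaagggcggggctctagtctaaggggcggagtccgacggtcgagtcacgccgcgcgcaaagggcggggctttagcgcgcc
Their G and C content was 56.4% for Atp6v0e2 and 54.0% for Atp6v0e.

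A search for TCACGTG on either strand, the core of the sequence that the lysosomal transcription factor TFEB and its relatives bind, covered 250 bases before to 50 bases after each RefSeq start. It was made for the 8 of the 9 genes with an entry in the RefSeq table, and 3 of them held it: Atp6v0e, Atp6v0b and Atp6v0d1. Of all 32851 promoters in the table, 3.77% held it (CACGTG alone, which TCACGTG contains, was in 7.15%). The 30-base sites are printed below with TCACGTG and its reverse complement in capitals. They lie at chr17:26676387-26676416 (plus strand), chr4:117887348-117887377 and chr4:117887330-117887359 (both minus strand, overlapping windows), and chr8:105566050-105566079 (minus strand).
Atp6v0e: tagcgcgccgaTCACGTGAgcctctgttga
Atp6v0b, site 1: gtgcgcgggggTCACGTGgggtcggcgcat
Atp6v0b, site 2: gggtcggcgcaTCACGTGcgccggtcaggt
Atp6v0d1: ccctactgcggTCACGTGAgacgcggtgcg
These letters were not found in the windows of Atp6v0e2, Atp6v0a1, Atp6v0c, Atp6ap1 or Atp6ap2, which says nothing about binding elsewhere. For Atp6v0a1 the window, chr11:101010148-101010447, lies inside the GENCODE gene, which starts at chr11:101009452. The bases before that GENCODE start were not searched. The average transgene differences of the 3 genes with the letters, given with their tests further on, were 0.15, 0.04 and -0.01 on the log2 scale, and none passed.

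Atp6v0e2 was lower in every hTDP+ library than in every library without the transgene, in both Grn genotypes and by a similar amount. In Grn+/+:hTDP- mice its lowest, median and highest values were 354.5, 360.2 and 372.0 CPM, and in Grn+/+:hTDP+ mice 294.5, 314.8 and 326.0 CPM. In Grn+/-:hTDP- mice they were 341.0, 365.5 and 371.6 CPM, and in Grn+/-:hTDP+ mice 298.0, 314.8 and 323.6 CPM. The 12 hTDP+ libraries, at 294.5 to 326.0 CPM, did not overlap with the other 12, at 341.0 to 372.0 CPM, in a comparison where 0.0329% of all genes tested did not overlap.

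The mean went from 362.6 ± 7.29 to 312.4 ± 11.97 CPM in Grn+/+ and from 361.0 ± 11.7 to 311.8 ± 10.7 CPM in Grn+/- mice (SD, n = 6 each). The log2 difference was -0.21 (SE 0.0308) in either Grn genotype and -0.21 (SE 0.0218) on average, a change of -13.7%. Without the Grn+/+:hTDP+ library of replicate 2 the average was -0.22. The mean of that group was then 309.7 ± 11.1 CPM (n = 5), and the value of replicate 2, 326.0 CPM, was the highest of the group. The TPM values gave the same picture, with 452.0 ± 8.18 against 383.2 ± 11.7 TPM in Grn+/+ and 442.8 ± 15.5 against 378.4 ± 15.0 TPM in Grn+/- mice.

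**Figure D2:**
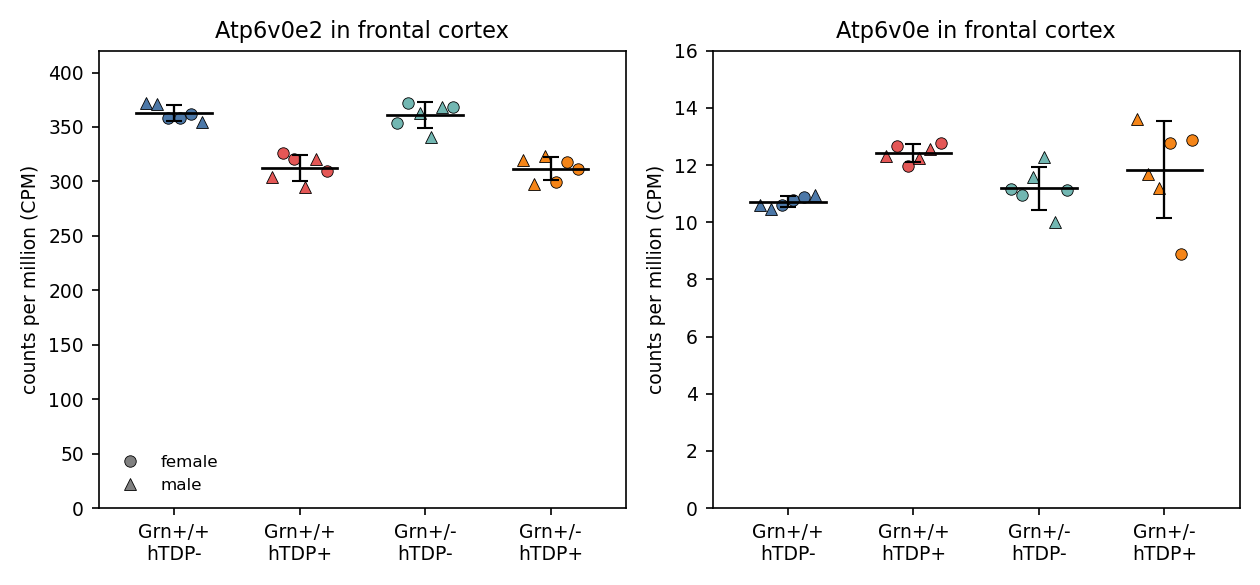
CPM of Atp6v0e2 (left) and Atp6v0e (right) by genotype, with 1 point per mouse, circles for females, triangles for males, a line at the mean and bars of 1 SD (n = 6 each). Atp6v0e2 sits between 294.5 and 326.0 CPM in all hTDP+ mice and between 341.0 and 372.0 CPM in the others, while the Atp6v0e groups overlap in Grn+/- mice and do not in Grn+/+ mice.

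Contrasts that had no part in the choice of Atp6v0e2 showed no difference past the threshold. Grn+/- against Grn+/+, averaged over both transgene states, gave a log2 difference of -0.01 (SE 0.0218, 95% interval -0.05 to 0.04, adjusted p = 0.988, edgeR's quasi-likelihood test with Benjamini-Hochberg adjustment over all genes). The interaction, which asks whether the transgene difference depended on Grn, was 0.00 (SE 0.0436, 95% interval -0.09 to 0.09, edgeR adjusted p = 0.9999). Males minus females gave -0.01 (SE 0.0218, edgeR adjusted p = 0.965), and the transgene difference in males minus that in females was -0.02 (SE 0.0443, edgeR adjusted p = 0.977).

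Atp6v0e had its higher values with the transgene in Grn+/+ mice and spread widely in Grn+/- mice. Its lowest, median and highest values were 10.46, 10.7 and 10.97 CPM in Grn+/+:hTDP- and 11.96, 12.44 and 12.78 CPM in Grn+/+:hTDP+ mice, so these groups did not overlap. In Grn+/-:hTDP- mice they were 10.02, 11.14 and 12.27 CPM, and in Grn+/-:hTDP+ mice 8.875, 12.23 and 13.61 CPM, and these groups overlapped. Atp6v0e was the only 1 of the other 8 genes whose groups did not overlap in Grn+/+ mice, where 0.504% of all genes did not, and none of the 8 was separated in Grn+/- mice (0.192% of all genes).

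Atp6v0e measured 10.7 ± 0.192 against 12.4 ± 0.303 CPM in Grn+/+ mice and 11.2 ± 0.74 against 11.8 ± 1.69 CPM in Grn+/- mice (SD, n = 6 each). The log2 difference was 0.21 (SE 0.0715, unadjusted p = 0.00655, edgeR adjusted p = 0.591) in Grn+/+ and 0.08 (SE 0.0715, edgeR adjusted p = 0.9999) in Grn+/- mice. Neither passed the threshold of 0.05 over all genes, and the difference between them was -0.13 (SE 0.101, edgeR adjusted p = 0.9999). Averaged over both Grn genotypes it was 0.15 (SE 0.0505, 95% interval 0.04 to 0.25, unadjusted p = 0.00774, edgeR adjusted p = 0.517). The lowest value, 8.88 CPM, came from replicate 5 of Grn+/-:hTDP+, and without that library the average was 0.18 with an edgeR adjusted p of 0.0537, the lowest over the alternatives tried. Without the Grn+/+:hTDP+ library of replicate 2 it was 0.14 (SE 0.0514, edgeR adjusted p = 0.578). On the TPM scale the Grn+/- groups stood at 34.5 ± 2.003 and 34.3 ± 3.41 TPM without and with the transgene.

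The ratio of the paralogs within a library, which needs no scaling between libraries, fell into separate ranges with and without the transgene in Grn+/+ mice. Atp6v0e2 exceeded Atp6v0e in TPM by 13.7 ± 0.453 times in Grn+/+:hTDP- and 10.1 ± 0.423 times in Grn+/+:hTDP+ mice (SD, n = 6 each), with ranges of 13.1 to 14.2 and 9.72 to 10.9. In Grn+/- mice the ratio was 12.9 ± 1.07 without and 11.2 ± 1.54 with the transgene, with ranges of 11.04 to 13.94 and 9.55 to 13.6 that overlapped. As Atp6v0e2 is part of the ratio, these transgene values are a description. Grn status was not used to choose the genes and did not pass the test on the ratio. The mean log2 ratio, Grn+/- minus Grn+/+, differed by -0.09 (SE 0.0545) without the transgene (exact two-sided permutation p = 0.102, adjusted p = 0.162 over the 2 comparisons, n = 6 per group). With the transgene it differed by 0.13 (SE 0.0834, exact permutation p = 0.162, adjusted p = 0.162, n = 6 per group).

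Atp6v0e made up a small share of the e subunit transcripts in every group. Its share of the summed TPM of both paralogs was 6.80% ± 0.211 in Grn+/+:hTDP-, 8.99% ± 0.332 in Grn+/+:hTDP+, 7.24% ± 0.598 in Grn+/-:hTDP- and 8.34% ± 1.02 in Grn+/-:hTDP+ mice (SD, n = 6 each). The sum of both paralogs was 484.9 ± 8.44 and 421.0 ± 11.9 TPM in Grn+/+ mice (hTDP- first, then hTDP+), and 477.3 ± 14.1 and 412.8 ± 12.5 TPM in Grn+/- mice. The summed level thus followed Atp6v0e2, and its ranges of 455.4 to 497.4 TPM without and 400.8 to 435.1 TPM with the transgene did not overlap. Since the sum contains Atp6v0e2, its transgene values are a description.

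**Figure D3:**
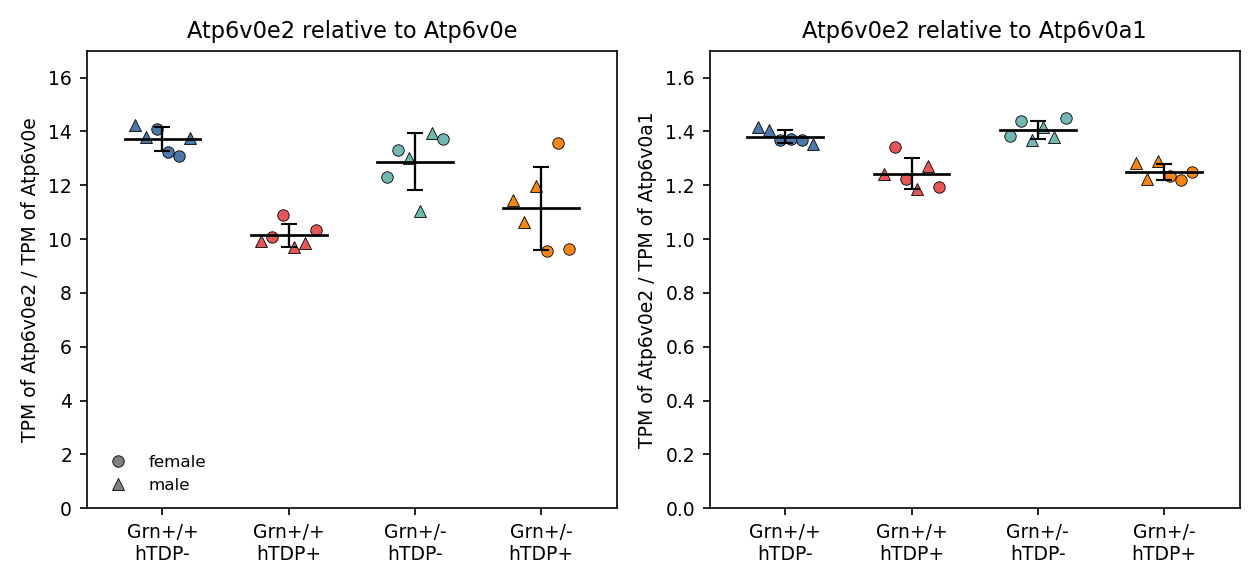
Ratio of the TPM of Atp6v0e2 to that of Atp6v0e (left) and to that of Atp6v0a1 (right) by genotype, with 1 point per mouse, circles for females, triangles for males, a line at the mean and bars of 1 SD (n = 6 each). The ratio to Atp6v0a1 spans 1.19 to 1.34 in hTDP+ and 1.35 to 1.45 in hTDP- mice, and the ratio to Atp6v0e overlaps in Grn+/- mice. Both ratios contain Atp6v0e2 and are a description.

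Set against another subunit of the same sector, Atp6v0e2 had lower ratios with the transgene. Its TPM ratio to Atp6v0a1 was 1.38 ± 0.0249 in Grn+/+:hTDP-, 1.24 ± 0.0583 in Grn+/+:hTDP+, 1.41 ± 0.0337 in Grn+/-:hTDP- and 1.25 ± 0.0301 in Grn+/-:hTDP+ mice (SD, n = 6 each). Against Atp6v0d1 it was 1.43 ± 0.0439 and 1.26 ± 0.0790 in Grn+/+ mice (hTDP- first, then hTDP+), and 1.46 ± 0.0395 and 1.26 ± 0.0606 in Grn+/- mice. The ratios to Atp6v0a1 did not overlap between hTDP+ and hTDP- libraries, while those to Atp6v0d1 did, at 1.173 to 1.405 with and 1.369 to 1.499 without the transgene. Both ratios contain Atp6v0e2, so these transgene values are a description too. How often ratios of other genes separate was not worked out.

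None of the other 8 genes passed the test for the average transgene difference, in which edgeR called 0.11% of all genes (20 of 18239) at an adjusted p under 0.05. Their log2 differences ran from -0.05 for Atp6v0a1 to 0.15 for Atp6v0e, with a median of -0.01 beside 0.00 over all genes tested. At an unadjusted p under 0.05, 2 of the 8 stood out by edgeR (Atp6v0e and Atp6v0a1) and 2 by DESeq2, which likewise called 0 of the 8, where edgeR gave 7.86% of all genes. In Grn+/+ mice alone edgeR called 0 of the 8 (0.0329% of all genes), with 1 at an unadjusted p under 0.05 (7.83% of all genes). DESeq2 gave 2 at that level and called 0. In Grn+/- mice alone edgeR called 0 of the 8 (0.0219% of all genes), with 0 at an unadjusted p under 0.05 by either tool.

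Of the a subunits, which carry the proton channel and set where the pump goes, Atp6v0a1 (chr11:101009452-101063719) measured 642.2 ± 6.18 CPM in Grn+/+:hTDP-, 616.8 ± 19.2 in Grn+/+:hTDP+, 627.7 ± 26.1 in Grn+/-:hTDP- and 611.7 ± 17.6 in Grn+/-:hTDP+ mice (SD, n = 6 each). All 4 groups overlapped, from 585.7 to 659.5 CPM. The average transgene difference was -0.05 (SE 0.0208, 95% interval from -6.1% to -0.34%, unadjusted p = 0.0307, edgeR adjusted p = 0.613). Atp6v0a2 (chr5:124628576-124724455) stayed between 59.3 and 71.5 CPM over all 24 libraries, with a difference of -0.04 (SE 0.0294, 95% interval -0.10 to 0.02, edgeR adjusted p = 0.757). It overlaps the antisense gene 4930404A12Rik, listed at 1.98 CPM, and whether counting used strand is not given in the sources used here.

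Neither proteolipid of the ring passed the test. Atp6v0b (chr4:117884326-117887333) measured 174.7 ± 3.43 and 182.0 ± 6.07 CPM in Grn+/+ mice (hTDP- first, then hTDP+), and 177.2 ± 6.47 and 180.7 ± 8.84 CPM in Grn+/- mice (SD, n = 6 each), a difference of 0.04 (SE 0.0232, interval from -0.31% to 6.54%, edgeR adjusted p = 0.666). Atp6v0c (chr17:24163866-24169702) lay between 930 and 1092 CPM in all groups, with a difference of 0.00 (SE 0.0290, 95% interval -0.06 to 0.06, edgeR adjusted p = 0.988). For Atp6v0c these limits correspond to -4.22% and 4.10%.

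The stalk subunit and the accessory proteins did not pass either, and their intervals included 0. Atp6v0d1 (chr8:105524465-105566047) ranged from 197.6 to 230.8 CPM, with a transgene difference of -0.01 (SE 0.0267, edgeR adjusted p = 0.922) and a 95% interval from -4.67% to 2.93%. Its lowest value came from the Grn+/+:hTDP+ library of replicate 2, and without that library the difference was 0.00 (SE 0.0248, edgeR adjusted p = 0.987). Atp6ap1 (chrX:74297097-74304721) ranged from 341.9 to 379.4 CPM with an interval from -2.98% to 2.79%, and Atp6ap2 (chrX:12587801-12617049) from 230.1 to 289.3 CPM with an interval from -6.05% to 3.97%.

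**Figure D4:**
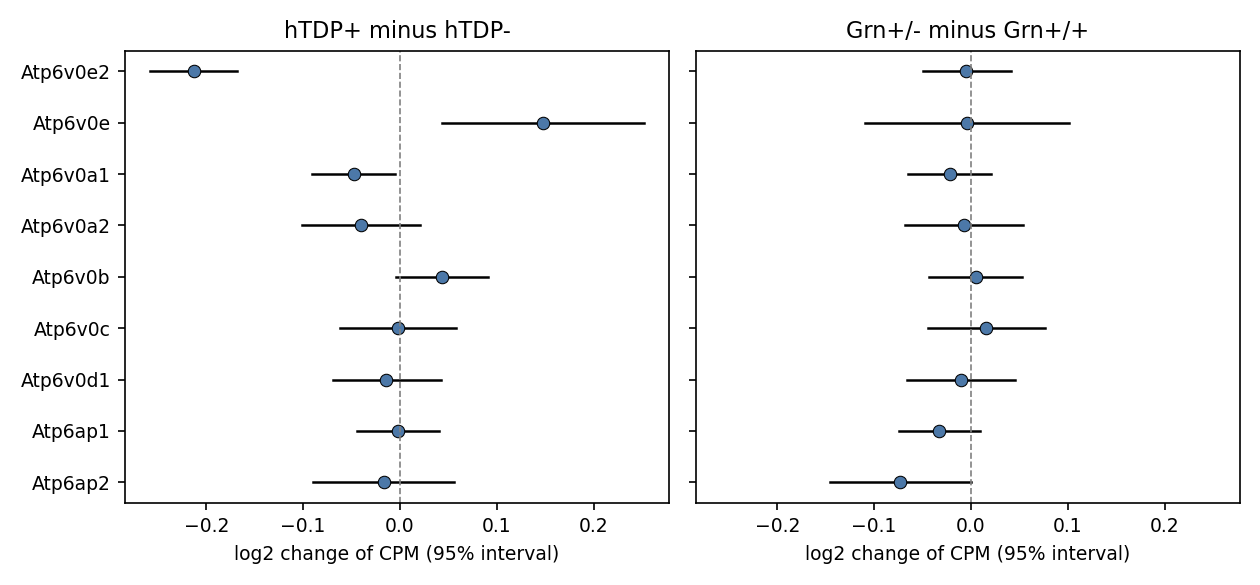
Log2 difference of CPM for the 9 genes with 95% intervals, averaged over the other factor, for the transgene (left) and for Grn+/- against Grn+/+ (right), 12 against 12 libraries each. Atp6v0e2 lies at -0.21 on the left, where its bar is a description and no test, and at -0.01 on the right. Of the other 8 genes none passed the test on the left, and none of the 9 on the right.

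For Grn status none of the 9 genes passed the threshold. On average over both transgene states edgeR called 0 of the 9, against 0.0219% of all genes, and DESeq2 also called 0. At an unadjusted p under 0.05 stood 1 of the 9 by edgeR (4.93% of all genes) and 1 by DESeq2. That gene was Atp6ap2, which measured 276.0 ± 8.44 and 269.1 ± 19.1 CPM in Grn+/+ mice (hTDP- first, then hTDP+) and 258.7 ± 16.3 and 259.3 ± 18.0 CPM in Grn+/- mice (SD, n = 6 each). Its log2 difference was -0.07 (SE 0.0353, unadjusted p = 0.0491, edgeR adjusted p = 0.926), and its Grn+/+ and Grn+/- libraries overlapped. None of the 9 had Grn groups that did not overlap (0.011% of all genes).

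None passed within either transgene state. Without the transgene edgeR called 0 of the 9 (0.011% of all genes) and with it 0 of the 9 (0.00548% of all genes), with 0 at an unadjusted p under 0.05 by edgeR or DESeq2 in both. The interaction called 0 of the 9 and 0.0% of all genes by edgeR, with 0 of the 9 at an unadjusted p under 0.05 by edgeR or DESeq2. The largest interaction in size was that of Atp6v0e, at -0.13, and those of the other 8 lay between -0.04 (Atp6v0a2) and 0.04 (Atp6ap2).

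None of the 9 passed the test for sex, Atp6ap1 and Atp6ap2 on the X chromosome included. EdgeR called 0 of the 9 for males against females (0.0713% of all genes), with 0 at an unadjusted p under 0.05 by edgeR, DESeq2 or limma-voom. Atp6ap1 differed by 0.01 (SE 0.0201, 95% interval -0.04 to 0.05) and Atp6ap2 by -0.04 (SE 0.0353, 95% interval -0.11 to 0.04). The transgene difference in males minus that in females called 0 of the 9 and 0.0% of all genes by edgeR, with 0 of the 9 at an unadjusted p under 0.05 by edgeR, DESeq2 or limma-voom. It ran from -0.09 (Atp6v0c) to 0.03 (Atp6v0e).

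Within Atp6v0e2, transcript 201 carried nearly all reads and the minor transcript 202 a smaller share where the gene was lower. Transcript 201 (1789 bases) held 97.1% ± 0.489 of the gene's estimated reads in Grn+/+:hTDP- and 98.3% ± 0.689 in Grn+/+:hTDP+ mice, and 97.3% ± 0.321 and 97.8% ± 0.274 in Grn+/- mice (hTDP- first, then hTDP+) (SD, n = 6 each). Transcript 202 (1612 bases), which shares its last 1374 bases with 201 and starts differently, held 2.77% ± 0.500 and 1.37% ± 0.718 in Grn+/+ and 2.55% ± 0.315 and 1.90% ± 0.290 in Grn+/- mice. Replicate 2 of Grn+/+:hTDP+ listed 202 at 0, and without it that group's share was 1.64% ± 0.291 (n = 5), from 1.32% to 1.93%, below the range of 2.25% to 3.55% in Grn+/+:hTDP- mice. The Grn+/- ranges, 2.28% to 3.14% without and 1.501% to 2.288% with the transgene, overlapped at their edges. Transcript 201 itself was lower, at 435.9 ± 9.44 against 373.7 ± 12.5 TPM in Grn+/+ and 427.6 ± 14.8 against 367.0 ± 14.1 TPM in Grn+/- mice. All of these transcript values belong to the contrast by which Atp6v0e2 was chosen and are a description.

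Atp6v0e divided its reads between transcript 201 (823 bases) and the longer 202 (2812 bases). The share of 202 was 19.9% ± 1.82 and 19.7% ± 5.24 in Grn+/+ mice (hTDP- first, then hTDP+), and 18.3% ± 2.98 and 22.8% ± 7.93 in Grn+/- mice (SD, n = 6 each). In the test of transcript usage, which compares the shares of a gene's transcripts of at least 5%, Atp6v0e was the only 1 of the 9 genes that could be tested. It did not pass for the transgene (unadjusted p = 0.546, edgeR's diffSpliceDGE, 0.152% of genes called) or for Grn (unadjusted p = 0.799, edgeR, 0.0381% of genes called), nor by limma's diffSplice (adjusted p = 0.640 and 0.862). With a minimum share of 1%, 7 of the 9 genes could be tested for Grn and none passed by edgeR, with Atp6v0a1 lowest at an unadjusted p of 0.00215 (adjusted p = 0.837). In the remaining 7 genes the main transcript held at least 89.95% of the reads on average in every group, the lowest mean being that of Atp6v0b-201 in Grn+/-:hTDP+ mice (± 3.47, SD, n = 6).

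Other genes of the pump and of the organelles it acidifies were read from lists, and none of their genes was called by edgeR or DESeq2 for the transgene. Of the V1 sector, which hydrolyses ATP, 10 of 13 genes were tested, 5 above and 5 below 0, with a median of 0.00 beside 0.00 over all genes. They ran from -0.07 (SE 0.0345) for the catalytic subunit Atp6v1a to 0.08 (SE 0.0284) for the peripheral stalk subunit Atp6v1g1. Of 5 other V0 genes, 4 were tested, with a median of 0.03. The kidney isoform Atp6v0a4 was lowest at -0.21 (SE 0.223), at a level of 0.282 ± 0.268 TPM (SD, n = 24), and Atp6ap1l was highest at 0.05 (SE 0.153).

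Of 12 listed factors that assemble or regulate the pump, 10 were tested, 5 above and 5 below 0, with a median of -0.02. At an unadjusted p under 0.05 stood 4 of the 10 by edgeR and 4 by DESeq2. Over all genes edgeR gave 7.86% at that level, a share that also applies to the lists that follow. Wdr7, a subunit of the rabconnectin complex that joins V1 to V0, was lowest at -0.12 (SE 0.0360, edgeR adjusted p = 0.417), and Ccdc115, an assembly factor, highest at 0.15 (SE 0.0539, edgeR adjusted p = 0.564). Ragulator and amino acid sensing genes, which meet the pump at the lysosome surface, ran from -0.08 for the Rag GTPase Rraga to 0.06 for Lamtor4 over 13 genes, with a median of 0.01 and 1 at an unadjusted p under 0.05. The 12 genes of lysosomal ion transport had a median of -0.02, from -0.08 (SE 0.319) for the channel Tpcn2 to 0.04 for Tmem9b, with 1 at an unadjusted p under 0.05.

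Transporters that use the proton gradient to fill synaptic vesicles ran from -0.07 (SE 0.0361) for the GABA and glycine transporter Slc32a1 to 0.16 (SE 0.0790) for the monoamine transporter Slc18a2 over 7 genes, with a median of 0.00. Of the transcription factors of lysosomal genes, 3 of 4 were tested, from -0.04 (SE 0.0862) for Tfeb to 0.01 (SE 0.0830) for Mitf. In both of these lists 0 genes had an unadjusted p under 0.05 by edgeR or DESeq2. For Grn status the 7 lists held 0 called genes by edgeR and by DESeq2, and among the assembly factors 1 gene was above and 9 were below 0, with a median of -0.04.

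**Figure D5:**
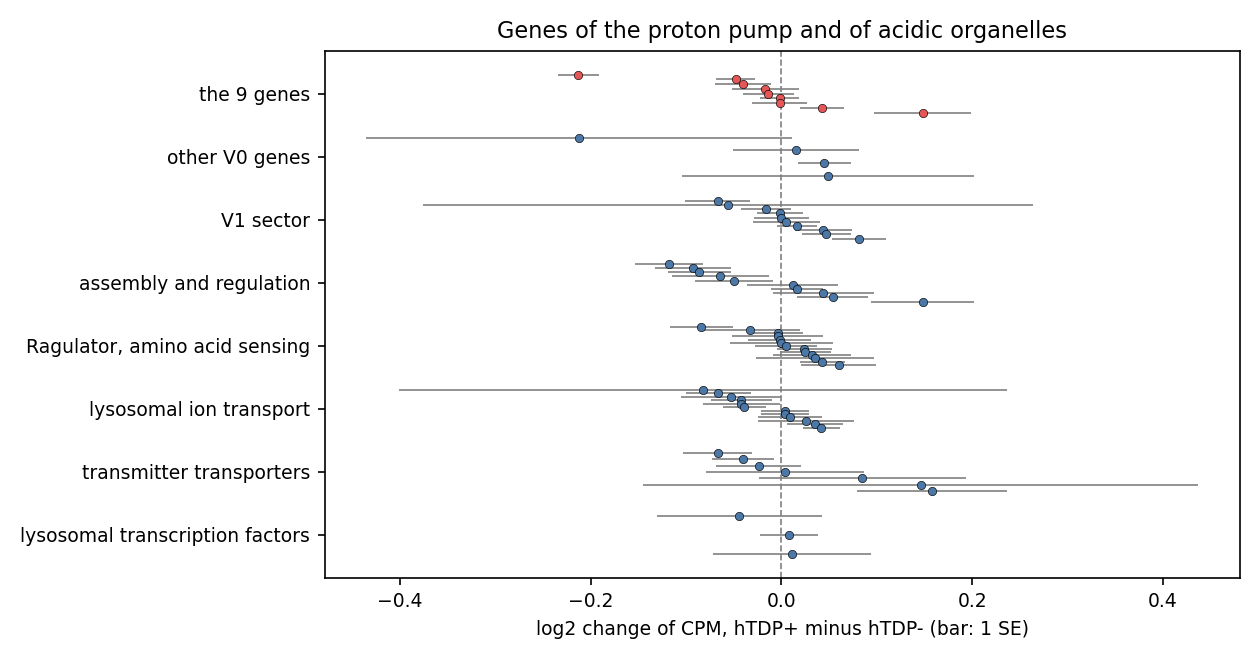
Log2 difference of CPM with the transgene, averaged over both Grn genotypes, for the 9 genes (top) and for tested genes of 7 lists, with bars of 1 SE. Atp6v0e2 is at -0.21 with a narrow bar, while Wdr7 is at -0.12, and Atp6v0a4 at a similar value has an SE of 0.223.

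No marker of another cell type was called by edgeR or DESeq2 for the transgene, but the oligodendrocyte markers had values of opposite sign in the 2 Grn genotypes. The 10 oligodendrocyte markers had a median log2 difference of 0.70 in Grn+/+ and -0.17 in Grn+/- mice, while that of Atp6v0e2 was -0.21 in both. In Grn+/+ mice 3 of these markers had an unadjusted p under 0.05 by edgeR (7.83% of all genes) and 2 by DESeq2. In Grn+/- mice 0 had one by either tool. The interaction, Grn+/- minus Grn+/+, was below 0 for all 10 oligodendrocyte markers, with a median of -0.88. For it 0 were called and 0 had an unadjusted p under 0.05 by edgeR or DESeq2. Their summed level was 1689 ± 591.8 and 2675 ± 813.7 TPM in Grn+/+ mice (hTDP- first, then hTDP+) and 2274 ± 1541 and 1916 ± 827.9 TPM in Grn+/- mice (SD, n = 6 each), with ranges from 996.6 to 5081 TPM. Of the 10 excitatory neuron markers 9 were below 0 on average, with a median of -0.05. In Grn+/+ mice the median was -0.095 with 9 below 0, and in Grn+/- mice -0.02 with 6 below 0. Their sum ranged from 4937 to 5966 TPM in Grn+/+:hTDP-, 4606 to 5520 in Grn+/+:hTDP+, 5079 to 5735 in Grn+/-:hTDP- and 4482 to 5586 in Grn+/-:hTDP+ mice. All 8 vascular and meningeal markers were above 0, with a median of 0.12. At an unadjusted p under 0.05 stood 3 of them, against 7.86% of all genes by edgeR. The medians were -0.03 for the 8 inhibitory neuron, 0.02 for the 8 astrocyte, -0.02 for the 8 microglia and 0.36 for the 7 choroid plexus and ependyma markers. Over 24 libraries, with group means and the sex difference taken out, Atp6v0e2 had r = 0.15 with the excitatory list and 0.39 with the oligodendrocyte list. It had -0.49 with the astrocyte, -0.38 with the choroid plexus and ependyma, 0.23 with the inhibitory, -0.24 with the vascular and -0.19 with the microglia list. Among the 9 genes the astrocyte r ran from -0.57 (Atp6ap2) to 0.17 (Atp6v0e). The oligodendrocyte r ran from -0.23 (Atp6v0e) to 0.50 (Atp6ap1). These r values describe libraries that share their depth and scaling. The part of these cell types in the values of Atp6v0e2 was not tested.

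No gene that starts within 1 Mb of Atp6v0e2 was called lower with the transgene, but genes farther along chromosome 6 were. Of 922 tested genes on that chromosome edgeR called 5, against 20 of 18239 over all genes. Both counts include Atp6v0e2 itself, which was chosen by this contrast, so its place in them is no test. Of the 5, Rarres2 was higher and the others, with Atp6v0e2, were lower. These were Scrn1 at -0.17 (edgeR adjusted p = 0.0141, 5.96 Mb away), Trbc2 at -0.65 (edgeR adjusted p = 0.0251, 6.99 Mb) and Pot1a at -0.33 (edgeR adjusted p = 0.00531, 22.79 Mb). With each exact age as a block, edgeR called only 2 genes over all chromosomes for this contrast, so not all of these calls held. A part of chromosome position in these values was not tested. Of 83 genes that start within 1 Mb of Atp6v0e2, 36 were tested, 20 above and 16 below 0, with a median of 0.01. Of these, 1 was called higher and 0 lower by edgeR. The nearest tested gene before it was the transcribed pseudogene Zfp862-ps, whose end lies 2.8 kb before the start of Atp6v0e2, at 0.10 (SE 0.0527, edgeR adjusted p = 0.672). Inside Zfp862-ps and on the opposite strand lies the processed pseudogene Gm7887, at -0.19 (SE 0.134, edgeR adjusted p = 0.754). The nearest tested gene after it was Lrrc61, which starts 17.2 kb from the start of Atp6v0e2, at -0.03 (SE 0.0469, edgeR adjusted p = 0.899). The called gene was Rarres2, whose product is the chemoattractant chemerin, 32.1 kb away at chr6:48569696-48572789. It overlaps the end of Lrrc61 (chr6:48554796-48570722) on the opposite strand, so reads there may be shared. Rarres2 measured 1.96 ± 0.525 CPM without and 3.38 ± 1.01 CPM with the transgene (SD, n = 12 each), a log2 difference of 0.78 (SE 0.134, edgeR adjusted p = 0.00946). By genotype the difference was 1.17 in Grn+/+ and 0.40 in Grn+/- mice. The Grn+/- groups overlapped, at 1.82 to 3.42 CPM without and 2.43 to 3.29 CPM with the transgene. The Grn+/+ groups lay at 1.26 to 2.03 and 2.63 to 5.87 CPM. For the interaction edgeR called 0 genes. The call held in 28 of 31 alternatives, all of one sign. It was lost with length-scaled counts (0.68, edgeR adjusted p = 0.0701), with only mice of 9.44 and 10.07 months (0.94, edgeR adjusted p = 0.794) and with each exact age as a block (0.77, edgeR adjusted p = 0.804).

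The 5 genes nearest to each paralog over the 24 libraries are named as a description, and the libraries share depth and scaling. With group means and the sex difference taken out, and over 9813 genes of at least 10 CPM, Atp6v0e2 was nearest to Scg5 (r = 0.79), a chaperone of secretory granules, Ncald (0.78), a neuronal calcium sensor, Skp1a (0.78), Aimp1 (0.78) and Tstd3 (0.77). Atp6v0e was nearest to Bnip1 (r = 0.79), Rapgef3 (0.78), Ptbp1 (0.75), a repressor of neuronal splicing, Anks3 (0.75) and Stk38 (0.74). On log2 TPM the genes nearest to Atp6v0e ranked differently, with Rapgef3 at rank 3, Bnip1 at 39, Ptbp1 at 134, Anks3 at 207 and Stk38 at 806. Those of Atp6v0e2 moved less, from rank 2 for Ncald to rank 19 for Aimp1. As measured, group differences included, the nearest to Atp6v0e2 were the mouse gene Tardbp (r = 0.89), Higd1a (0.85), Ap2m1 (0.83), Scrn1 (0.83) and Trbc2 (0.82). This order holds the transgene difference by which Atp6v0e2 was chosen, so it is no separate result. None of these genes was among the 5 nearest with group and sex taken out. Reads of Tardbp may be shared with the human transgene. Scrn1 and Trbc2 are on chromosome 6 as well, 5.96 and 6.99 Mb from Atp6v0e2, and were called lower with the transgene. On log2 TPM Tardbp kept rank 1, with Scrn1 at rank 3, Trbc2 at 4, Ap2m1 at 10 and Higd1a at 77. Nearest to Atp6v0e as measured were Bnip1, Rapgef3, Stk38, Firre and P3h3, which on log2 TPM ranged from rank 8 (Rapgef3) to rank 1090 (Firre).

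Among the 9 genes, Atp6v0e2 had positive r with the abundant subunits and negative r with its paralog. With group and sex taken out its r was 0.54 with Atp6v0a1, 0.52 with Atp6ap2, 0.52 with Atp6v0c, 0.47 with Atp6ap1, 0.45 with Atp6v0b and 0.28 with Atp6v0d1, all on log2 CPM over 24 libraries. It was -0.26 with Atp6v0e and -0.23 with Atp6v0a2. Without the Grn+/+:hTDP+ library of replicate 2, r with Atp6v0d1 was 0.52 and with Atp6v0a1 0.68, and on log2 TPM r with Atp6v0b was 0.18 and with Atp6v0e -0.56. Atp6v0e itself had r = -0.48 with Atp6v0a1 and -0.49 with Atp6ap2. These values describe 24 libraries that share their scaling.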

How the data were processed

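Frontal cortex of 24 mice was measured as bulk RNA. The deposited files hold, per the file headers, expected counts and TPM for 149444 transcripts per library. Salmon, STAR, SAMtools and DESeq2 are named, without versions, per the submitters' processing notes. Build and annotation are not given in the sources used. Transcripts were matched by identifier to GENCODE M21 (GRCm38), which placed 92.4% of them, and the authors' expected counts were added up within each gene, then rounded.

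Genes were tested with edgeR 4.0.16 (R 4.3.3, quasi-likelihood, two-sided, TMM, edgeR's default filter) over all 24 libraries, with 1 term per genotype and 1 for sex. A call is a Benjamini-Hochberg adjusted p under 0.05 over 18239 genes. DESeq2 1.42.0 and limma 3.58.1 served as alternatives, and the scripts were tested on simulated data. CPM uses a prior count of 1 for log2 values. Ratios of TPM were compared by exact permutation over libraries. Fold changes between genotypes rest on counts, levels between genes on TPM. The median log2 TPM of genes moved by at most -0.04 between groups.

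The 9 genes and the lists were chosen with earlier results of these data known. Named besides them are each list's lowest and highest gene, called genes and the nearest tested genes within 1 Mb of Atp6v0e2 (Zfp862-ps, nearest by its end, was added after its values were seen), and the 5 genes most like each paralog. The genes called on chromosome 6 are named too. Replicate numbers are names in accession order.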

Additional observations from a re-analysis of the deposited data

How the results depend on the processing

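Under DESeq2, no filter, length-scaled counts, no sex term (limma-voom for the sex contrasts), a linear age term, the loss of each of the 24 libraries in turn and, chosen after seeing the data, only mice of 9.44 and 10.07 months (1 mouse left in Grn+/-:hTDP-, assumed to vary like the others) or each exact age as a block, no gene of the 9 passed or lost the threshold, Atp6v0e2 not judged for the transgene. Its average transgene difference ranged from -0.22 to -0.21 over these 31 alternatives, and the sign of 36 of 81 pairs of gene and comparison changed somewhere, each with a main value of at most 0.036 in size. Calls over all genes did shift. For the average transgene difference edgeR called 20 and DESeq2 61, and 3 were called in the 2 ages alone. In Grn+/+ mice 6 became 29 with DESeq2 and 1 in the 2 ages, and in Grn+/- mice 4 became 10 with DESeq2 and 2 in the 2 ages, with no filter, with length-scaled counts or with a linear age term. For Grn the average of 4 became 9 with DESeq2. Without the transgene 2 became 6 with DESeq2 and 0 with linear age. With it 1 became 5 with DESeq2 and 0 with no filter, length-scaled counts or the 2 ages. For the interaction 0 became 3 with DESeq2 and 2 in the 2 ages, for sex 13 became 22 with DESeq2, and for the transgene by sex 0 became 2 with DESeq2. The loss of 1 library gave 14 to 22 calls for the average transgene difference, 2 to 4 in Grn+/- mice, 1 to 2 for Grn with the transgene and 0 to 3 for Grn without the transgene. The cause was not tested. Of 7877 genes tested for transcript usage, edgeR called 12 for the transgene and 3 for Grn, and limma 35 and 2; without replicate 2 of Grn+/+:hTDP+ edgeR called 15 and 6. With each exact age as a block edgeR called 2 genes for the average transgene difference, 5 in Grn+/+ and 0 in Grn+/- mice, 1 for Grn on average, 0 for Grn in either transgene state, 0 for the interaction, 12 for sex and 0 for the transgene by sex. No paired analysis was possible because the labels pair no mice and give no replicate number that groups share; exact age groups mice but does not pair them. Atp6v0e had 578 to 1239 reads per library and Atp6v0e2 19730 to 32540; the part of depth in their spread was not tested.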

Other observations

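TDP-43 is known to bind RNA rich in UG repeats. A search for TGTGTG on the sense strand of each gene's most abundant annotated transcript found none in Atp6v0e2-201, Atp6v0e-201, Atp6v0a2-201, Atp6v0b-201 or Atp6v0c-201. Atp6v0a1-201 held 1 run, and Atp6v0d1-201, Atp6ap1-201 and Atp6ap2-201 held 2 runs each. Of the most abundant transcripts of 18238 tested genes, 69.9% held the letters, and of the 2635 of a length near that of Atp6v0e2-201 (1789 bases) 57.0% did. Introns were not searched, and a match or its absence is no measure of binding.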
